A study of Oryza sativa with 20 samples.

Results

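Rice leaves hold a set of 90 genes whose expression exceeded that of unfed leaves at each of 4 times of feeding by C. medinalis, the rice leaf folder, a caterpillar that rolls rice leaves and scrapes off the green tissue. The 90 members were chosen by their measured values. Expression was taken as log2(FPKM + 1), where FPKM is the number of sequenced fragments of a gene, scaled to the length of the gene and to the number of fragments of the library. Rice loci (OS identifiers) with an FPKM of 0.5 or more in at least 4 of the 20 libraries were considered, 20343 of the 37830 listed. A member had a mean at 1, 6, 12 and 24 h that was higher than the 0 h mean by 0.8 or more at each of these times. All values against 0 h are therefore given as a description, without a test.

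The series holds 4 libraries each of leaves fed on for 1, 6, 12 or 24 h and 4 libraries of the 0 h control, each made from leaves of 5 five-week-old plants of the strain Minghui 63 that were merged. One starved larva, at the third instar, was confined with a leaf in a Parafilm bag for the last 1, 6, 12 or 24 h. The 0 h leaves were bagged too, but had no larva, and a single harvest closed all 5 treatments. The labels call the libraries biological replicates, and the p-values below measure the spread between these merged samples. The 4 feeding times share the same 4 control libraries. The libraries held 17796577 to 22090180 fragments on genes.

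Leaf feeding is known to raise jasmonic acid (JA), a hormone made from membrane lipids, and its active conjugate with isoleucine. JAZ proteins are repressors that hold JA-responsive transcription factors inactive. The conjugate makes the receptor bind JAZ proteins and mark them for degradation, which frees the transcription factors. JAZ genes are themselves among the genes that JA switches on, so that new repressor is made while the pathway is active.

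Names are given to 3 of the 90 members, which are JAZ genes: OS03G0180900, OS03G0181100 and OS09G0439200. Their names come from a description of the whole series, not from the study's text. They were singled out after their values were seen. Names shown only in the study's figures were not used here. The other members may therefore hold further JAZ genes, and comparing the JAZ genes with them does not set JAZ genes against genes of other kinds. The other 87 members have no name in the values, in the RefSeq gene table at hand or in the study's text, and appear by identifier only. The study's text gives identifiers for 9 genes, none of which is a JAZ gene or a member. Among them AOC, an enzyme of JA synthesis, had differences from 0 h of 0.71, 1.07, 0.51 and 1.05 at 1, 6, 12 and 24 h, so that it missed the threshold at 1 and 12 h. Leaf marker genes could not be looked up without names, so the labelled tissue was not checked here. Sequences of the members were not used here.

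The members stood further above 0 h at 6 and 24 h than at 1 and 12 h. On the log2(FPKM + 1) scale, the median difference from 0 h was 1.36, 1.97, 1.22 and 1.82 at 1, 6, 12 and 24 h. The same medians over all 20343 loci were 0.01, 0.11, -0.03 and 0.03. The median ratio of mean FPKM to 0 h was 3.54, 5.99, 2.85 and 5.06 at these times. Single members ranged from 0.80 to 3.68 at 1 h and from 0.89 to 4.38 at 6 h. They ranged from 0.81 to 3.02 at 12 h and from 0.87 to 4.90 at 24 h. Because of the added 1, a member with low FPKM shows a smaller difference on this scale than its ratio of FPKM.

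**Figure D1:**
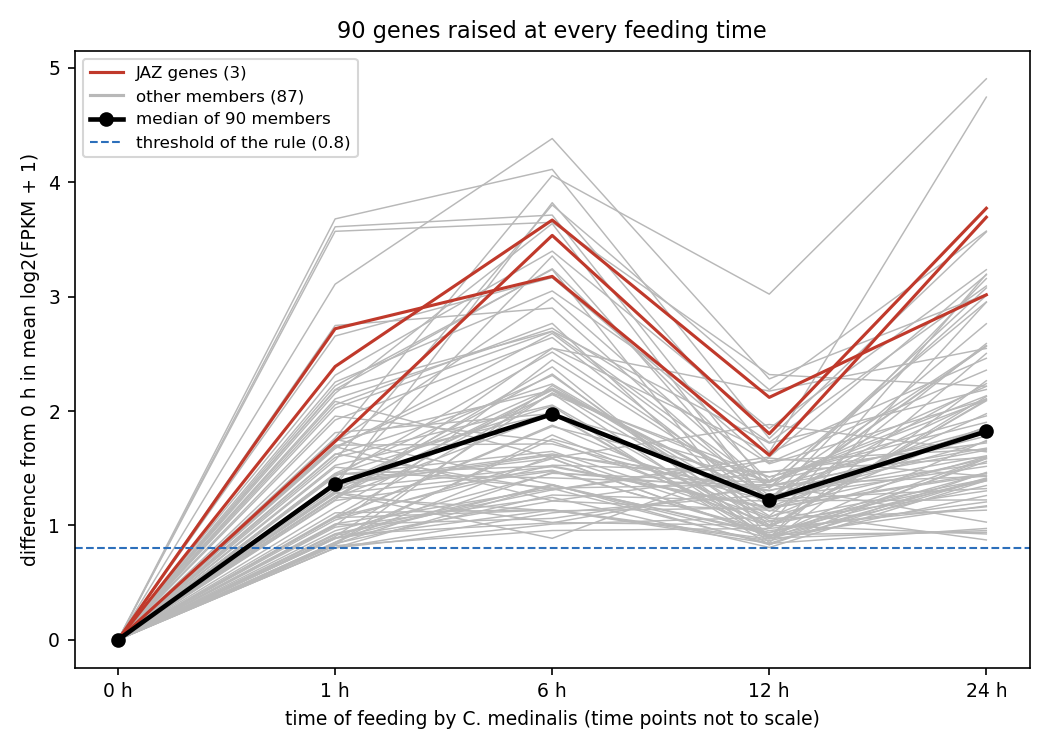
Difference of mean log2(FPKM + 1) from the 0 h mean (y axis) for each of the 90 members by feeding time from 0 to 24 h (x axis, not to scale). Grey lines are 87 unnamed members, red lines the 3 JAZ genes, the black line the median and the dashed line the threshold of 0.8; the median stands at 1.36, 1.97, 1.22 and 1.82 at the 4 feeding times.

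Time points differed in how many loci passed the threshold. It was passed by 247, 983, 310 and 944 loci at 1, 6, 12 and 24 h. Members made up 36.4% of those at 1 h and 29.0% of those at 12 h, against 9.16% at 6 h and 9.53% at 24 h. The rule puts all 90 members past the threshold at every time, so these shares follow from the counts alone. Of the 20343 loci, 940 passed at 1 feeding time, 397 at 2, 130 at 3 and 90 at all 4. Most of the 130 loci that missed at a single time did so at 12 h (67 loci) or 1 h (51 loci). Their median difference at the missed time was 0.47 at 12 h and 0.48 at 1 h. The 0 h libraries enter all 4 differences, and leaving out 1 of them gave 77 to 120 members. Leaving out 1 library gave 82 to 94 members at 1 h and 73 to 97 at 12 h, and 88 to 92 at the other two times.

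Loci just inside and just outside the threshold had close values. OS01G0699100 had its smallest difference, 0.803, at 1 h, and OS06G0538400 had 0.804 at 1 h. OS11G0125900 missed with 0.798 at 1 h, and OS02G0527200 with 0.796 at 12 h. A smallest difference between 0.8 and 0.9 was found in 23 members, and 30 further loci lay between 0.7 and 0.8. The smallest difference was at least 1 in 50 members and at least 1.5 in 15.

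The level before feeding varied widely among the members. The 0 h mean was under 1 FPKM in 20 members, 1 to 10 FPKM in 47 and 10 FPKM or more in 23, with a range of 0.0617 to 210.2 FPKM. The median FPKM of the members was 3.40 at 0 h and 12.2, 20.4, 9.68 and 18.3 at the 4 feeding times in turn. In 8 members the 0 h mean was under 10 fragments, so that their ratios to 0 h rest on few fragments. In 4 members at least 1 of the 0 h libraries had no fragment, and no member was at 0 in all 4. All 16 fed libraries were above all 4 unfed libraries in 58 of the 90 members, where 1.37% of all loci showed this. As the rule used the same contrast, nothing is read from that count. In bulk leaf samples, a change in the share of cells that express a gene and a change in RNA per cell cannot be told apart.

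The summed mean FPKM of the 90 members was 996 at 0 h and 3189.6, 4919, 2602 and 4983 at the 4 feeding times in turn. The sum was thus higher at each feeding time than at 0 h, as the rule requires of each member.

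OS09G0439200 had the largest smallest difference from 0 h of the JAZ genes, 2.12 at 12 h. It had 8.04, 13.6, 9.70 and 9.74 FPKM at 0 h, 45.4, 69.4, 67.1 and 50.4 FPKM at 1 h and 117, 196, 163 and 104 FPKM at 6 h. It had 57.9, 36.5, 57.1 and 41.3 FPKM at 12 h and 40.3, 172, 116 and 76.6 FPKM at 24 h. The 6 h libraries were all above the 1 h and the 12 h libraries without overlap. At 24 h the first library was among the 12 h values and the other three were above all of them.

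OS03G0180900 and OS03G0181100 are neighbours in the list of loci on chromosome 3, by their locus numbers. OS03G0180900 had 5.07, 5.35, 4.62 and 12.4 FPKM at 0 h, 19.6, 24.02, 37.6 and 16.9 FPKM at 1 h and 27.4, 157, 174 and 65.5 FPKM at 6 h. It had 33.4, 15.3, 33.3 and 21.3 FPKM at 12 h and 40.97, 149, 199 and 79.4 FPKM at 24 h. Its 6 and 24 h means of 106 ± 70.9 and 117 ± 70.6 FPKM (SD, n = 4 each) had wide spreads, with the first library of both times lowest.

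OS03G0181100 varied widely at 0 h, with 6.55, 67.1, 9.44 and 27.1 FPKM. It had 106, 149, 158 and 111 FPKM at 1 h and 52.5, 419, 210.1 and 212 FPKM at 6 h. It had 124, 46.3, 63.9 and 33.5 FPKM at 12 h and 129, 298, 449.9 and 240.1 FPKM at 24 h. The 0 h libraries overlapped the 6 and 12 h libraries, and 12 of the 16 fed libraries were above all unfed ones. Neighbouring genes of one family can share reads. According to the study, only uniquely mapped reads were used, so reads that fit both genes would be missing from both. How far this lowered the values of OS03G0180900 and OS03G0181100 was not tested.

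Most abundant of all members was OS07G0615200, which has no name here. It had 194, 196, 187 and 264 FPKM at 0 h, 544, 595, 603 and 444 FPKM at 1 h and 531, 879, 676 and 546 FPKM at 6 h. It had 591, 412, 609.8 and 479.7 FPKM at 12 h and 513, 752, 762 and 642 FPKM at 24 h. Every fed library was above every unfed one, and the differences from 0 h were 1.38, 1.62, 1.31 and 1.66 at 1, 6, 12 and 24 h, a narrow span of 0.35. None of its differences between feeding times passed the test described below, the largest being 0.35 ± 0.18 (SE) for 24 h over 12 h (limma-trend adjusted p = 0.279).

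OS03G0402800 was the next most abundant. It had 111, 156, 112 and 162 FPKM at 0 h, 387, 549.9, 588 and 321 FPKM at 1 h and 417, 1020.1, 615 and 522 FPKM at 6 h. It had 448, 234, 372 and 244 FPKM at 12 h and 456, 615, 664 and 597 FPKM at 24 h. All 16 fed libraries were above all unfed ones, and the 12 h libraries were the lowest fed group by the mean (324 ± 103 FPKM, SD, n = 4).

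**Figure D2:**
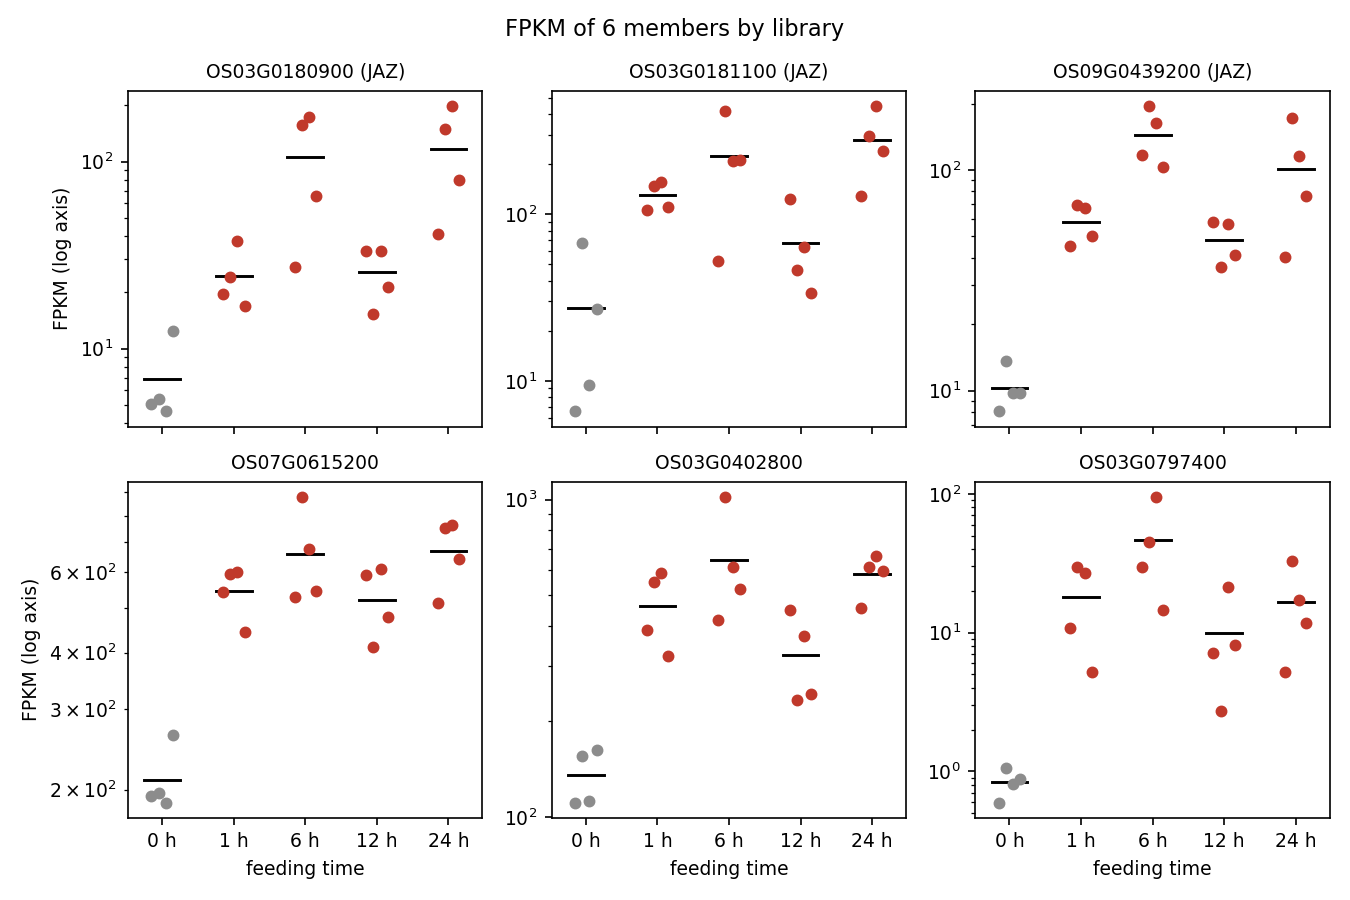
FPKM in each library (y axis, log scale, one panel per gene) of the 3 JAZ genes (upper row) and of OS07G0615200, OS03G0402800 and OS03G0797400 (lower row) by feeding time (x axis), with unfed libraries in grey, fed libraries in red and the mean of 4 libraries as a black line. Means at 6 and 24 h stand above those at 1 and 12 h in 5 panels; in OS03G0797400 the 24 h mean is below the 1 h mean.

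A pair of neighbouring genes on chromosome 3, OS03G0797400 and OS03G0797300, had the largest smallest differences of all members. OS03G0797400 had 0.596, 1.07, 0.816 and 0.881 FPKM at 0 h, 10.7, 29.9, 26.8 and 5.20 FPKM at 1 h and 29.9, 45.2, 95.05 and 14.5 FPKM at 6 h. It had 7.16, 2.73, 21.4 and 8.20 FPKM at 12 h and 5.24, 32.9, 17.3 and 11.7 FPKM at 24 h. Its lowest fed library was above the highest unfed one, and the differences from 0 h were 3.11, 4.38, 2.28 and 3.02 at 1, 6, 12 and 24 h. OS03G0797300 had 2.81, 2.32, 1.05 and 4.87 FPKM at 0 h, 30.4, 81.8, 60.3 and 18.02 FPKM at 1 h and 28.6, 56.8, 88.6 and 23.6 FPKM at 6 h. It had 21.00, 5.84, 42.9 and 13.2 FPKM at 12 h and 8.94, 20.3, 21.7 and 13.8 FPKM at 24 h. Here the differences from 0 h were 3.57, 3.65, 2.32 and 2.22, and the 24 h libraries were all below the 6 h libraries. Whether OS03G0797400 and OS03G0797300 are alike enough to share reads was not tested.

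The next most abundant members in fed leaves, singled out after their values were seen, were OS12G0569500 and, on chromosome 1, OS01G0123900 and OS01G0132000. OS12G0569500 had 32.2, 35.2, 39.1 and 29.2 FPKM at 0 h, 188, 343, 248 and 141 FPKM at 1 h and 345, 418, 319 and 203 FPKM at 6 h. It had 129.8, 66.7, 137 and 86.9 FPKM at 12 h and 91.3, 276, 181 and 215 FPKM at 24 h. Its fed libraries were all above its unfed ones, and each 12 h library was below each 1 h and 6 h library. OS01G0123900 had 20.2, 26.3, 28.7 and 24.2 FPKM at 0 h, 111, 212, 147 and 73.5 FPKM at 1 h and 314, 327, 275 and 186 FPKM at 6 h. It had 105, 64.00, 112 and 92.00 FPKM at 12 h and 101, 468, 277 and 255 FPKM at 24 h. Fed and unfed libraries did not overlap. OS01G0132000 had 4.60, 28.5, 10.0013 and 3.29 FPKM at 0 h, 19.4, 49.5, 40.7 and 23.2 FPKM at 1 h and 128, 161, 231 and 123 FPKM at 6 h. It had 90.98, 48.6, 76.2 and 95.4 FPKM at 12 h and 74.5, 991, 524 and 159 FPKM at 24 h. One 0 h library was above 2 of the 1 h libraries, and the 24 h mean of 437 ± 418 FPKM (SD, n = 4) rested mainly on 2 libraries.

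The course across the feeding times was mostly a maximum at 6 or 24 h with a lower mean at 12 h. Between feeding times the rule set no order, so these differences were tested. The test was limma-trend on log2(FPKM + 1) in one fit of all 20 libraries, with Benjamini-Hochberg adjustment over 24058 identifiers, and a gene was called at an adjusted p under 0.05 without a minimum fold change. The libraries tested here are those in which each member had to pass the threshold. The same time-point means thus entered both the rule and the test. Identifiers set beside the members were not chosen by the rule. How far the rule shifted the p-values and the shares of calls was not tested. By the mean, 45 members had their maximum at 6 h, 38 had it at 24 h, and 6 had it at 1 h. The remaining member, OS06G0652300, was highest at 12 h. The lowest fed mean was at 12 h in 52 members and at 1 h in 29. In 75 of the 90 members the 12 h mean was below both the 6 and the 24 h mean, which held for 53.0% of all 20343 loci. The commonest orders of the means were 6 h above 24 h above 1 h above 12 h in 18 members and 24 h above 6 h above 1 h above 12 h in 17.

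At 12 h over 6 h, the 36 members that fell made up the largest group of calls among the members. These were 40% of the members, against 27.4% of all identifiers that were lower, and 2 members were higher, against 7.92% of all identifiers. The median difference was -0.75, where the median of all identifiers was -0.14. Among the JAZ genes OS09G0439200 fell by 1.55 ± 0.33 (SE, limma-trend adjusted p = 0.00143) and OS03G0180900 by 1.73 ± 0.54 (limma-trend adjusted p = 0.0179). OS03G0181100 differed by -1.56 ± 0.65 (limma-trend adjusted p = 0.0689) and did not pass. Of the most abundant members OS03G0402800 fell by 0.96 ± 0.27 (limma-trend adjusted p = 0.00996), and OS07G0615200 differed by -0.32 ± 0.18 (limma-trend adjusted p = 0.173) without a call. The call of OS03G0180900 was lost under 4 of 28 alternatives. The 12 h libraries were all below the 6 h libraries in 17 of the 90 members. This was a smaller share than the 25.5% of all identifiers.

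The size of this fall depended on the scaling between libraries. All identifiers together stood higher at 6 h, and after dividing FPKM by median-of-ratios factors the median of all identifiers was 0.00. The median of the members was then -0.56, and 23 members were lower, against 13.4% of all identifiers, and 3 were higher, against 14.9%. Of the 38 calls, 25 remained. In place of 38 calls there were 21 when 6 h replicate 2 was left out and 22 when 6 h replicate 3 was. Leaving out 12 h replicate 2 gave 24 calls and 12 h replicate 4 gave 25, as did a fit of the 6 and 12 h libraries alone.

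Unnamed members spanned a wide range at this step. The largest falls were in OS07G0564500 (-2.47 ± 0.80 SE, limma-trend adjusted p = 0.0233) and OS04G0301500 (-2.39 ± 0.83 SE, limma-trend adjusted p = 0.0325). OS07G0564500 had 13.4, 1.43, 5.74 and 2.95 FPKM at 12 h, against 4.25, 75.4, 71.6 and 28.9 FPKM at 6 h. OS04G0301500 had 13.8, 8.40, 13.1 and 4.55 FPKM at 12 h, against 6.47, 156, 96.96 and 70.01 FPKM at 6 h. In both genes the groups overlapped through 6 h replicate 1. The call of OS07G0564500 was lost under 5 of 28 alternatives, with limma adjusted p-values from 0.00191 to 0.0821. The call of OS04G0301500 was lost under 9, both scalings among them, with limma adjusted p-values from 0.00158 to 0.114.

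Both members that were higher at 12 h than at 6 h had narrow spreads. OS06G0652300 had 26.8, 21.7, 20.5 and 24.2 FPKM at 12 h, against 12.8, 17.1, 13.7 and 12.4 FPKM at 6 h, without overlap (0.70 ± 0.15 SE, limma-trend adjusted p = 0.00134). OS02G0471500 had 61.8, 50.4, 64.9 and 53.7 FPKM at 12 h, against 35.03, 57.3, 52.2 and 40.1 FPKM at 6 h (0.33 ± 0.12 SE, limma-trend adjusted p = 0.0445). In OS02G0471500 the groups overlapped, and its call was lost under 14 of 28 alternatives.

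**Figure D3:**
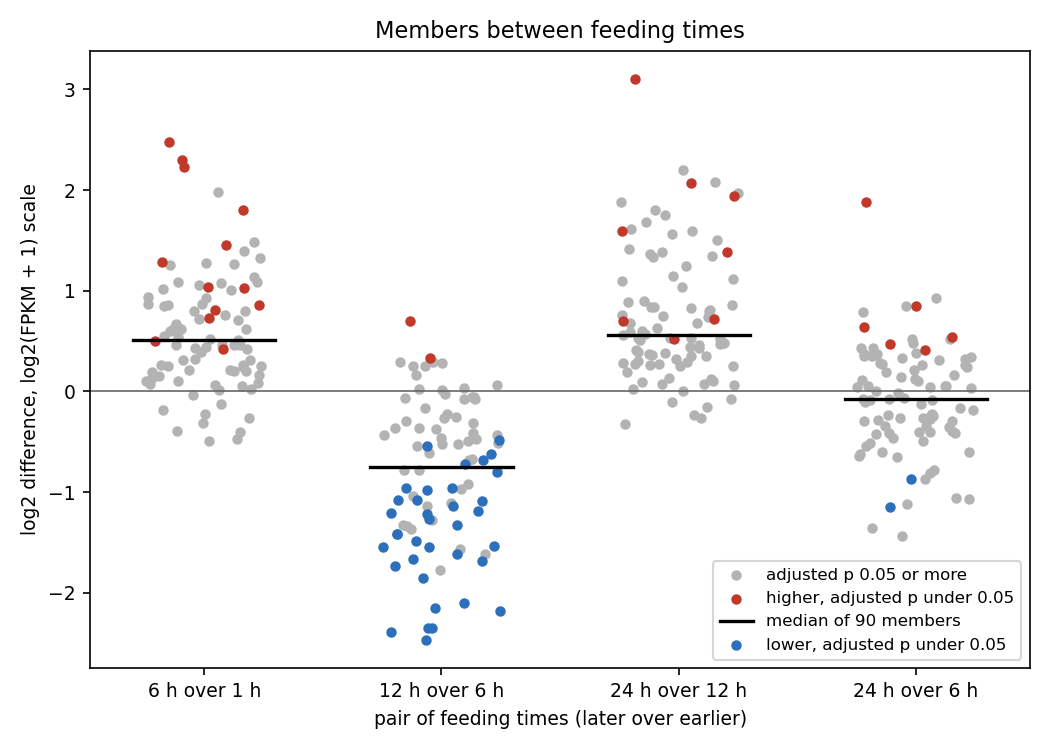
Log2 difference on the log2(FPKM + 1) scale (y axis) of the 90 members for 4 pairs of feeding times, later over earlier (x axis). Red points were higher and blue points lower at an adjusted p under 0.05 (limma-trend), grey points did not pass, and black lines are medians; 36 blue points stand at 12 h over 6 h.

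Between 1 and 6 h, 13 members were called higher at 6 h, 14.4% of them. This share was close to the 11.9% of all identifiers. The median difference was 0.51, where that of all identifiers was 0.10. In this fit none of the members was lower at an adjusted p under 0.05, nor by limma-voom on the recovered fragments, and 3 were lower at an unadjusted p under 0.05. OS03G0180900 rose by 1.80 ± 0.54 (SE, limma-trend adjusted p = 0.0296) and OS09G0439200 by 1.28 ± 0.33 (limma-trend adjusted p = 0.0132). The call of OS03G0180900 was lost under 6 of 28 alternatives. The highest differences were in OS01G0124000 and OS01G0132000. OS01G0124000 had 30.1, 15.8, 22.6 and 13.4 FPKM at 6 h, against 2.12, 6.09, 2.78 and 1.19 FPKM at 1 h, without overlap (2.48 ± 0.59 SE, limma-trend adjusted p = 0.00859). OS01G0132000 rose by 2.29 ± 0.66 (SE, limma-trend adjusted p = 0.025), and its groups did not overlap either. Its call was lost under 3 of 28 alternatives, and that of OS01G0124000 under 1. All 6 h libraries were above all 1 h libraries in 12 of the 90 members, a smaller share than the 14.4% of all identifiers.

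This count of 13 varied with single libraries. Leaving out 1 h replicate 1 or 6 h replicate 2 gave 7 calls, and 6 h replicate 3 gave 5. Leaving out 6 h replicate 1 gave 25 calls and 24 h replicate 1 gave 20. After division by median-of-ratios factors 8 members were higher, against 5.44% of all identifiers, and 2 were lower, against 7.37%. The lower members were OS06G0652300 and OS09G0431900, with -0.53 (limma-trend adjusted p = 0.0337) and -0.44 (limma-trend adjusted p = 0.0338). OS06G0652300 was also called lower when 1 h replicate 4, 6 h replicate 2 or 24 h replicate 1 was left out, OS09G0431900 when 6 h replicate 2 was, and OS05G0515200 when 1 h replicate 4 was.

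At 24 h over 12 h, 8 members were higher, 8.89% of them, against 2.12% of all identifiers. The median difference was 0.56, where that of all identifiers was 0.07. None was lower by limma-trend or by limma-voom, and none at an unadjusted p under 0.05. No JAZ gene was called, although all 4 of the 24 h libraries were above all 12 h libraries in OS03G0180900 and OS03G0181100. The smallest JAZ p was that of OS03G0180900, with 1.97 ± 0.54 (SE, limma-trend adjusted p = 0.0563). Such a separation was seen in 20 of the 90 members, a larger share than the 9.53% of all identifiers. OS01G0124000 had 7.28, 147, 55.9 and 31.98 FPKM at 24 h, against 3.02, 2.67, 4.14 and 4.52 FPKM at 12 h (3.10 ± 0.59 SE, limma-trend adjusted p = 0.0102). OS06G0220900 had 7.48, 34.6, 73.9 and 27.2 FPKM at 24 h, against 8.58, 4.89, 4.64 and 5.51 FPKM at 12 h (2.07 ± 0.51 SE, limma-trend adjusted p = 0.0394). The groups did not overlap in OS01G0124000 and overlapped in OS06G0220900 through 24 h replicate 1.

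The 24 h over 12 h calls also moved with single libraries. In place of 8 calls, leaving out 24 h replicate 2 or 3 gave 1 call and leaving out 12 h replicate 4 gave 2. There were 3 calls when 12 h replicate 2 or 24 h replicate 4 was left out, and 4 for 12 h replicate 1 or 3. There were 5 for 0 h replicate 1 or 4, for 1 h replicate 1 or 3, and for 6 h replicate 3 or 4. Leaving out 24 h replicate 1 gave 22 calls. Under 28 alternatives the call was lost 22 times for OS01G0123900, 20 times for OS01G0834900, 11 times for OS06G0220900 and once for OS01G0124000, when the 12 and 24 h libraries were fitted alone. After division by median-of-ratios factors 5 members were higher, against 1.22% of all identifiers.

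Between the times of the highest levels, 8 members changed. At 24 h over 6 h the median difference of the members was -0.07, and that of all identifiers was also -0.07. After division by median-of-ratios factors these medians were 0.03 and 0.01. The calls that follow are without these factors. Higher at 24 h were 6 members, or 6.67%, against 8.11% of all identifiers. Lower were 2, OS01G0757200 and OS06G0725200, or 2.22%, against 16.3%. The number of lower members was 5 when 6 h replicate 4 or 24 h replicate 2 was left out and 4 for 6 h replicate 1. It was 1 for 6 h replicate 2 or 3 or 24 h replicate 1. No JAZ gene was called, with differences from -0.65 in OS09G0439200 to 0.52 in OS03G0181100. The highest JAZ mean was at 6 h for OS09G0439200 and at 24 h for OS03G0180900 and OS03G0181100.

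Over the 4 pairs of feeding times, 45 members were called at least once and 45 were not called. Falls at 12 h over 6 h followed by a rise at 24 h over 12 h were called in 4 members, OS01G0123900, OS01G0124000, OS01G0834900 and OS06G0220900. OS01G0124000 was also called for a rise at 6 h over 1 h, the only member with all 3 calls. The share of all identifiers with such calls was not counted, so nothing particular to the members is read from these counts. The span between the largest and the smallest of the 4 differences from 0 h had a median of 1.01 and ranged from 0.33 to 3.40. It was under 0.5 in 14 members and over 2 in 13.

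Libraries of one feeding time differed in the level of the members as a whole. The rule used only the means of time points, so the deviation of each library from its mean was not part of it. The mean log2(FPKM + 1) over the 90 members was 2.34 ± 0.21 in unfed leaves and 3.86 ± 0.25, 4.46 ± 0.56, 3.63 ± 0.30 and 4.38 ± 0.53 at the 4 feeding times in turn (SD, n = 4 each). At 6 h the 4 libraries stood 1.51, 2.65, 2.53 and 1.80 above the 0 h mean. At 24 h they stood 1.35, 2.45, 2.47 and 1.89 above it. Libraries stood 1.31 to 1.79 above it at 1 h and 0.94 to 1.54 at 12 h. The lowest fed library was thus 0.75 above the highest unfed library.

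**Figure D4:**
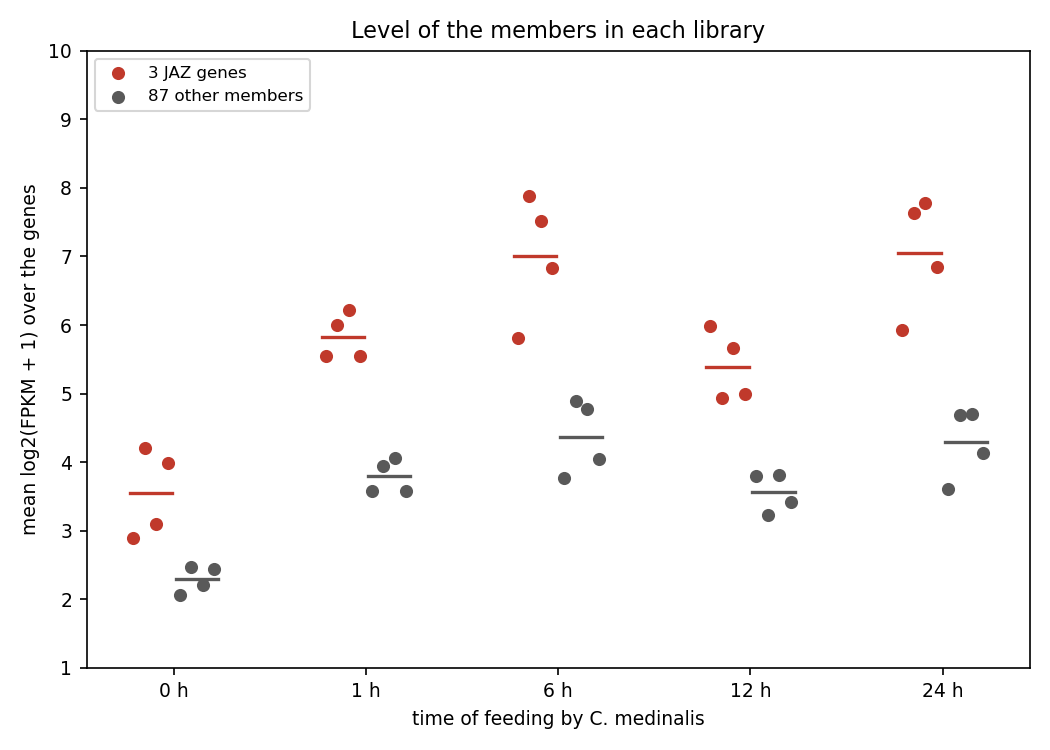
Mean log2(FPKM + 1) (y axis) of the 3 JAZ genes (red) and the 87 other members (grey) in each library, in the order of replicate number within each feeding time (x axis), with the mean of 4 libraries as a line. Both groups of genes spread most at 6 and 24 h, where replicate 1 is lowest in both. The 87 may hold further JAZ genes.

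These differences were shared by most members. In 6 h replicate 2, 87 of the 90 members were above their 6 h mean, and in 24 h replicate 1 only 7 were above their 24 h mean. The median SD of the members was 0.53 at 6 h and 0.51 at 24 h, against 0.13 and 0.14 for all loci. At 0 h it was 0.30, against 0.13 for all loci, at 1 h 0.34 against 0.15, and at 12 h 0.42 against 0.15. Fragment totals of the 6 h libraries were nearly equal, from 18510153 to 18708539. The mean deviation over all 24058 identifiers was between -0.06 and 0.06 in every library. What made libraries of one time differ in the members was not tested.

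Members thus deviated together between libraries of one time point. Over the 20 libraries, the median correlation of these deviations between 2 members was 0.49, and 94.1% of pairs were above 0. For all loci the median was 0.05, with 55.9% above 0. The libraries of a time point are shared by all genes, so these correlations are a description. In the 77 members with a mean of at least 100 fragments the median was also 0.49. Among the 3 pairs of JAZ genes it was 0.68, from 0.63 to 0.73. The mean deviations of these 3 genes and of the other 87 members, which may hold further JAZ genes, correlated at 0.95 over the 20 libraries.

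The 87 other members may hold further JAZ genes, so JAZ genes may in part be set against JAZ genes here. Of these 87, 63 had a correlation of at least 0.5 with the mean deviation of the 3 JAZ genes, or 72.4%, against 10.1% of all loci. The median was 0.66 and the range -0.11 to 0.94. The correlation was at least 0.8 in 22 members, whose differences from 0 h had medians of 1.71, 2.62, 1.22 and 2.48 at 1, 6, 12 and 24 h. Among these, 14 were called lower at 12 h over 6 h and 2 higher at 24 h over 12 h. Of all 90 members 36 and 8 were so called, and of all identifiers 27.4% and 2.12%. The 22 were picked by values of the same libraries, so these counts are a description. At the other end, OS04G0687800, OS05G0580000, OS06G0230000 and OS06G0109300 had correlations under 0.2. They were picked after their values were seen, and their differences had medians of 1.18, 1.56, 1.35 and 1.58 at these times. Their span over the 4 feeding times was at most 0.87, with a median of 0.57, against a median of 1.49 for the 22. Both ranges overlapped, since 4 of the 22 had a span under 0.87, with 0.33 the lowest.

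**Figure D5:**
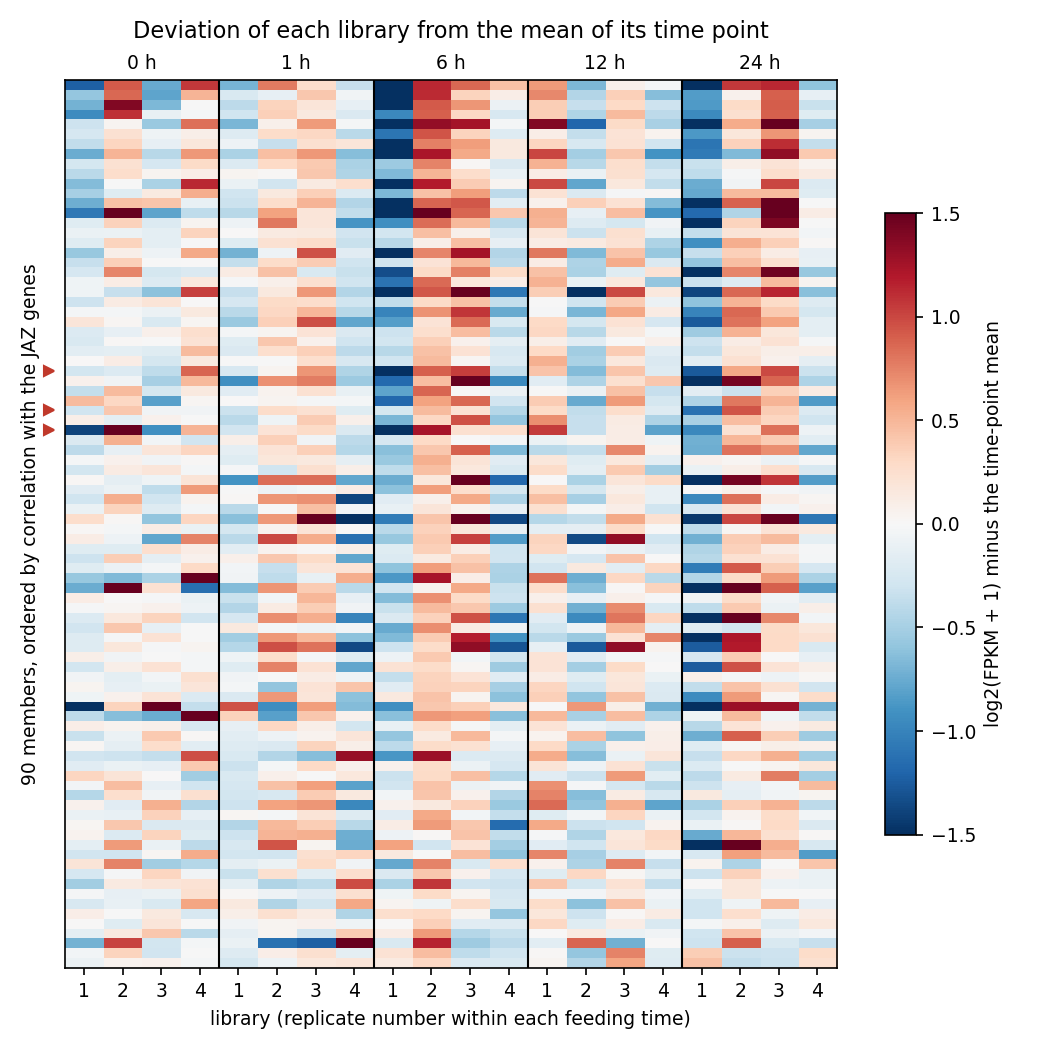
Deviation of log2(FPKM + 1) from the mean of the time point (colour, red above and blue below) for the 90 members (rows, ordered by their correlation with the JAZ genes) in the 20 libraries (columns, by replicate number within each feeding time). Red arrowheads mark the 3 JAZ genes; 6 h replicate 1 and 24 h replicate 1 are blue in most rows, and 6 h replicate 2 is red in 87.

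Loci that missed the rule at 12 h alone were alike in this respect. The median correlation between 2 of these 67 loci was 0.58, and that with the JAZ genes was 0.75. Their median differences were 1.00, 1.54, 0.47 and 1.37 at 1, 6, 12 and 24 h. For the 51 loci that missed at 1 h alone the correlations were lower, 0.28 between loci and 0.46 with the JAZ genes. Their medians were 0.48, 1.28, 1.02 and 1.53. How far both groups differed from the members was not tested.

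Some members lie close together in the genome. By their locus numbers, chromosomes 1 and 3 held 18 members each, 20% of the members, against 14.3% and 13.6% of the loci considered. Chromosome 4 held 12 members, 13.3%, against 8.63% of loci. There were 4 pairs of directly neighbouring loci: OS01G0123900 with OS01G0124000, OS03G0180900 with OS03G0181100, OS03G0797300 with OS03G0797400, and OS04G0525100 with OS04G0525200. Their deviations between libraries correlated at 0.68 to 0.88 within pairs, where the median over all pairs of members was 0.49. The first pair lies with OS01G0127600 and OS01G0132000 within 60 listed loci, and the 4 genes correlated at 0.73 to 0.91. How many such neighbours other sets of 90 loci hold was not counted, so no clustering is read from these values. Members were shorter than other loci, with a median length of 1206 bases as recovered from FPKM and fragments, against 1453 bases. Whether neighbouring genes share reads, and whether the counting used strand, was not tested.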

How the data were processed

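RNA of rice leaves was sequenced as 20 libraries in 5 groups of 4. According to the study's methods, the authors filtered the reads, aligned them to IRGSP-1.0 with HISAT2 (version 2.09 in the submitters' processing notes), counted reads per gene with featureCounts 1.5.0-p3 and calculated FPKM, and they tested with DESeq2, which was not run here. The authors deposited these FPKM for 92858 identifiers, of which 35755 were above 0. Fragment totals and whole fragments were recovered from FPKM for 35755 identifiers within 0.01 fragments, and gene lengths came with them. Genes with few fragments carry counting error beside the spread between libraries.

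FPKM were transformed to log2(FPKM + 1), with a pseudocount of 1. Identifiers with at least 0.5 FPKM in at least 4 libraries were kept, 24058 in all, of which 20343 were OS loci. Feeding times were compared with limma-trend (limma 3.58.1, R 4.3.3) in one fit of 20 libraries with 15 residual degrees of freedom, and p-values were adjusted by Benjamini-Hochberg. The fit was tested on simulated data. Other values come from Python 3.11.15 with numpy 2.4.6 and pandas 2.3.3, and figures from matplotlib 3.10.9.

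The members and the named genes were chosen with earlier results of these data known. Named genes are the 3 JAZ members and, of the unnamed members, the 2 with the highest fed FPKM, the 2 with the largest smallest difference, and up to 2 with the highest and 2 with the lowest called difference at each step between neighbouring feeding times. Others are named as chosen after their values were seen. Identifiers in the RefSeq table (assembly ASM3414082v1) matched none of the members, so planned annotation groups, leaf markers and promoter motifs were not run. Chromosomes and neighbours were read from locus numbers. Results were recomputed with a pseudocount of 0.1, no filter, a mean of at least 10 fragments, median-of-ratios and upper-quartile factors, a threshold of 1.0, the compared groups alone, limma-voom on recovered fragments, a replicate block and each library left out.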

Additional observations from a re-analysis of the deposited data

Results flagged for a closer look

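Among 110 groups of 4 libraries that were examined, 4 held a library far from the other 3. The genes share libraries and deviate together, so this count cannot be set against a chance rate. All 4 groups were at 0 h. The gap to the nearest library, as a share of the range of the group, was 0.885 for OS07G0615200 (194, 196, 187 and 264 FPKM) and 0.906 for OS03G0180900 (5.07, 5.35, 4.62 and 12.4 FPKM), both through 0 h replicate 4. It was 0.836 for OS06G0652300 (7.65, 7.35, 7.50 and 5.83 FPKM), through 0 h replicate 4, and 0.931 for OS04G0301500 (0.939, 18.3, 1.35 and 2.14 FPKM), through 0 h replicate 2. Without 0 h replicate 4 the rule took 120 genes, 30 more than with it.

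Some members differed between feeding times by the test of the difference itself (limma-trend, adjusted p under 0.05). There were 13 such members at 6 h over 1 h, 38 at 12 h over 6 h, 8 at 24 h over 12 h and 8 at 24 h over 6 h. At 6 h over 1 h 14.4% of members were higher, against 11.9% of all identifiers. At 12 h over 6 h 40% were lower, against 27.4%, and 2.22% higher, against 7.92%. At 24 h over 12 h 8.89% were higher, against 2.12%. At 24 h over 6 h 6.67% were higher, against 8.11%, and 2.22% lower, against 16.3%.

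Outside the OS loci, 12 of 3715 other identifiers met the same rule, all of them EPlOSAG identifiers. In 2 of these all 4 unfed libraries were at 0 FPKM. Their fed means were 1.93 and 2.83 FPKM.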

How the results depend on the processing

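The number of members was 217 with a pseudocount of 0.1 and 50 with a threshold of 1.0. Leaving out each library gave 73 to 120 members. Median-of-ratios and upper-quartile factors gave 91 members each, of which 86 and 85 were among the 90. At 6 h over 1 h, leaving out each library gave 5 to 25 called members. At 12 h over 6 h there were 25 with the groups compared alone and 21 to 47 without single libraries. At 24 h over 12 h there were 4 with a pseudocount of 0.1, 4 without a filter, 5 with either set of scaling factors and 1 with the groups compared alone, with 1 to 22 without single libraries. At 24 h over 6 h the range without single libraries was 7 to 11. The named members had 26 calls, and of 728 alternatives to them 619 kept the call, 109 lost it and 0 reversed it. The cause of these changes was not tested.

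Whether replicate numbers pair the libraries was not settled by these values. Libraries with the same number had correlations of -0.16 to 0.24 in their deviations from the group means, with 5 of 32 over 0.1, over the 4 pairs of feeding times and the 4 comparisons with 0 h. The mean deviation of the members, however, kept its sign by replicate number at 1, 6 and 24 h. It was -0.21, -0.62 and -0.69 in replicate 1 and 0.15, 0.53 and 0.41 in replicate 2. In replicate 3 it was 0.27, 0.41 and 0.43, and in replicate 4 -0.21, -0.33 and -0.15. Replicates 1 and 2 at 12 h and replicates 3 and 4 at 0 h had the other sign. With the replicate number as a block, 18, 42, 12 and 10 members were called at 6 h over 1 h, 12 h over 6 h, 24 h over 12 h and 24 h over 6 h. Without it there were 13, 38, 8 and 8.

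The depth limits the lowest genes. A mean under 10 fragments at 0 h was found in 8 members and a mean of 7.25 fragments over the fed libraries in 1. All 4 libraries of a time come from one experiment, and comparisons with 0 h share the same control libraries.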
